A study of Mus musculus with 4 samples.

Results

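Potassium channel genes were followed in the hippocampus of mice after global cerebral ischemia. They were taken by name: all gene symbols that begin with Kcn, 95 in the count files, of which 1 is left out by the rule, so that 94 of 22609 genes remained. The rule uses symbols alone, though the set was picked with earlier results of these data known. Bulk RNA sequencing covered ovariectomized female mice in which both common carotid arteries were clamped for 20 min under isoflurane and reperfused for 24 h. The control group, FLOX-control, has 2 libraries from FLOX mice, used as the genetic controls. The knockout group, GFAP-ARO-KO, has 2 libraries from mice in which Cre driven by the Gfap promoter is meant to delete Cyp19a1, the aromatase gene, in astrocytes. Both groups were ovariectomized and both were ischemic; no sham group was analysed here, and neither age nor strain is given in the labels. The labels do not say whether the libraries of a group came from separate animals, so a p-value here measures the spread between these libraries, which may be technical.

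Potassium channels let potassium leave the cell and so set the resting potential, end the action potential and limit repeated firing. Voltage-gated (Kv) channels open on depolarization, calcium- and sodium-activated channels open when those ions rise inside the cell, inward rectifiers (Kir) hold the resting potential, and tandem-pore (K2P) channels carry a steady leak. In the hippocampus pyramidal cells, granule cells and interneurons differ in the set they use, and glia use Kir and K2P channels to take up potassium that neurons release. During ischemia the membrane gradient collapses, and several of these channels respond to the fall in ATP, to acid or to stretch.

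The control libraries held 33495548 and 33235564 gene reads and the knockout libraries 34878375 and 27930696. Potassium channel genes took 0.489% and 0.490% of the control reads and 0.514% and 0.470% of the knockout reads. Levels are given as CPM, counts scaled to library size with TMM factors. Levels of different genes are compared only as CPM per kb of annotated exon. A count of 0 allows up to 3 counts, a level of up to 0.0854 to 0.106 CPM, depending on the library, for counting error only. Cyp19a1 itself gave 3 and 2 reads in controls against 1 and 9 in knockouts, too few to check the genotype labels. The second knockout library carried more RNA of meningeal genes and of some mural genes than the other libraries. There 9 markers of meninges summed to 2260 CPM, against 435 to 552 CPM in the others. For 9 markers of mural cells the sum was 434 CPM there and 151 to 177 CPM elsewhere. Acta2, Vtn, Tagln, Myh11 and Pdgfrb were highest in that library, while Rgs5, Cspg4, Notch3 and Ndufa4l2 were not. None of these 18 markers was at 0 in all 4 libraries.

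Of the 94 genes, 81 had enough reads to be tested, and 14 of them passed the threshold, an adjusted p under 0.05 in edgeR's quasi-likelihood test over all genes. Among all 15011 genes tested 20.4% passed, and among the potassium channel genes 17.3% did. In the knockout 8 potassium channel genes rose, where 9.39% of all genes did, and 6 fell, where 11.0% did. The share of potassium channel genes that passed is near that of all genes and is no result about them as a group. Counts by family and by marker list below rest on few genes each and are to be read beside these shares. The median log2 fold change, knockout against control, was -0.01 over the 81 genes and 0.00 over all genes. The genes that rose were Kcne2, Kcns1, Kcnk2, Kcnj11, Kcnk1, Kcnt1, Kcnip1 and Kcns2. Those that fell were Kcnk13, Kcnj16, Kcnv1, Kcnu1, Kcna6 and Kcna4. Among them 3 rose and 3 fell by 2-fold or more; a change of that size was seen in 7.41% of the tested potassium channel genes and in 6.77% of all genes tested. In bulk tissue fewer cells of a type and less RNA per cell cannot be told apart. The plot of each library shows the 14 genes.

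**Figure D1:**
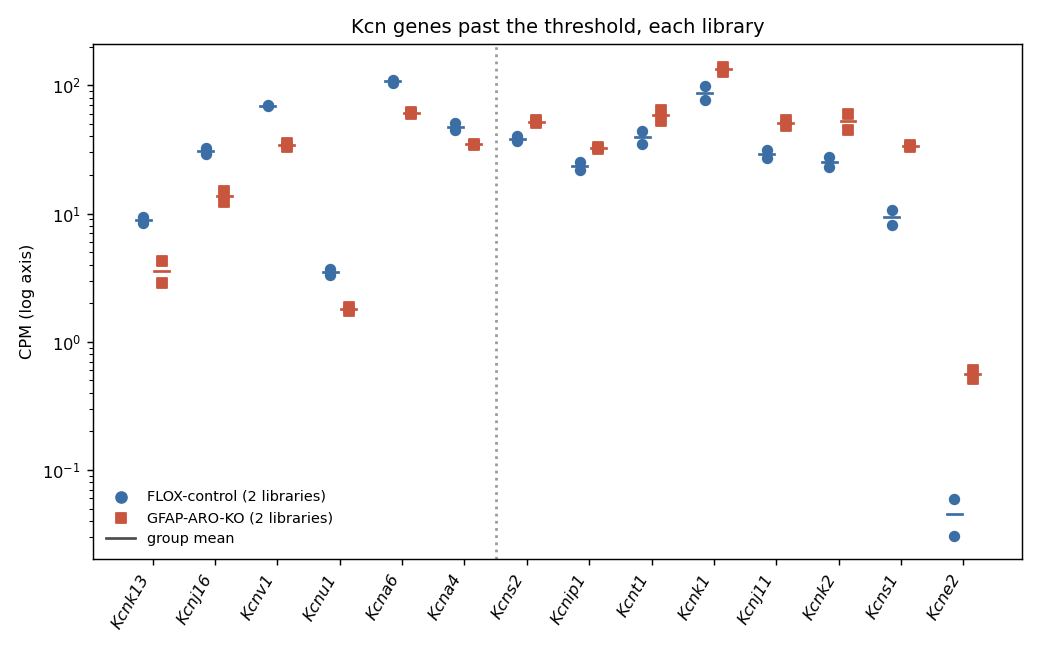
Level (CPM, log axis) of the 14 potassium channel genes past the threshold in each of the 2 FLOX-control and 2 GFAP-ARO-KO libraries; horizontal bars are group means. The 6 genes left of the dotted line were lower and the 8 right of it higher in the knockouts, and in each gene the pairs of libraries do not overlap, as was so for 64.8% of all genes tested, while 20.4% of all genes tested passed.

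**Figure D2:**
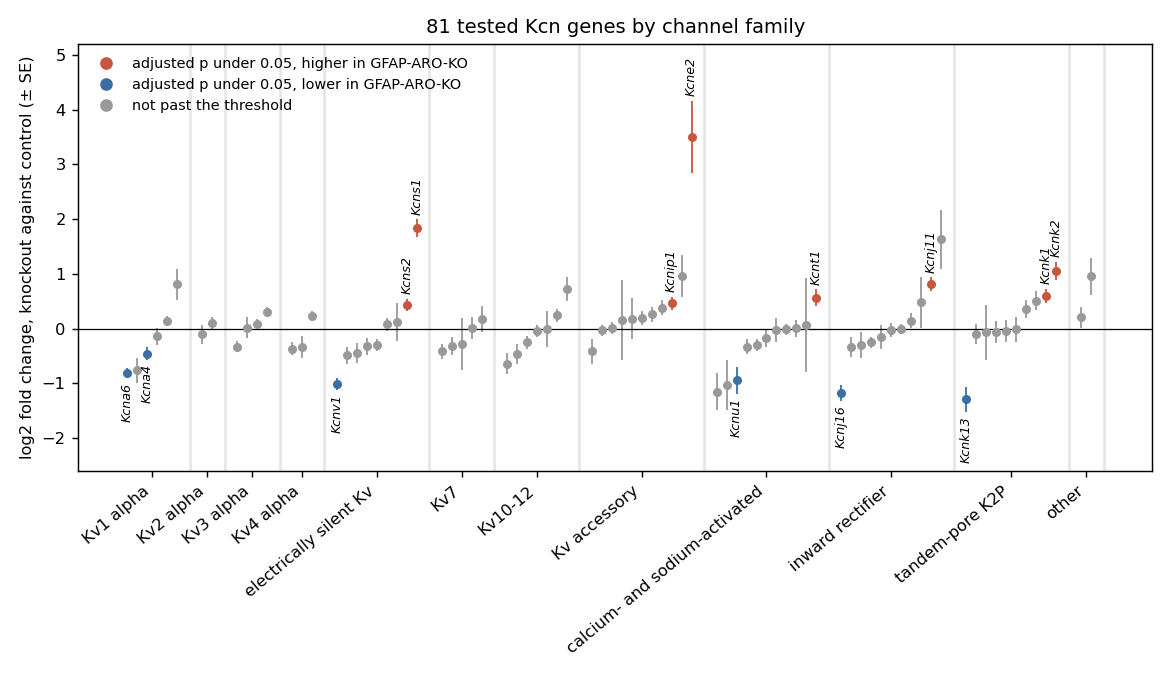
Log2 fold change with its standard error for the 81 tested genes, grouped by channel family. Genes past the threshold are named and colored; they are spread over 6 families, and both directions occur in the silent, the calcium- and sodium-activated, the Kir and the K2P families.

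The changes held to different degrees when 1 library was left out. Kcna6, Kcnj16, Kcnk2, Kcns1 and Kcnv1 passed in all 4 such fits, as the plot of fits with each library left out shows. Without the first control library 8 potassium channel genes passed, where 5.87% of all genes did, and without the second control 6 passed, where 5.29% did. Leaving out the first knockout library gave 27, where 31.5% of all genes passed, and leaving out the second knockout gave 15, where 18.1% passed. None of the 14 genes changed direction in any of these 4 fits. This could hardly be otherwise, since their knockout and control libraries do not overlap.

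**Figure D3:**
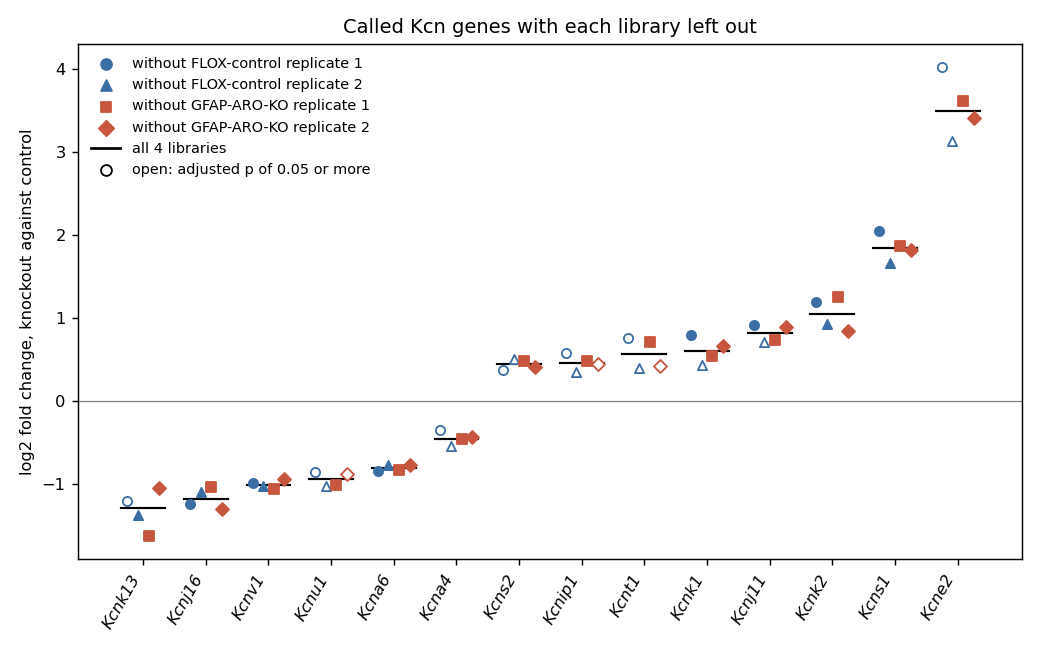
Log2 fold change of the 14 called genes with all 4 libraries (black bars) and with each library left out in turn (symbols; open where the adjusted p is 0.05 or more). All symbols of a gene lie on the same side of 0, which could hardly be otherwise where the pairs of libraries do not overlap. The open symbols belong mostly to fits without a control library.

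The promoters of Kcns1 and Kcna6 are shown because these genes moved in opposite directions, passed with each library left out and have a single start in RefSeq. The letters are the 250 bases before the start, 5′ to 3′ on the gene's strand, from RefSeq's GRCm38.p6. Each has 1 exact match on the minus strand of mm9 (NCBIM37), for Kcns1 at chr2:163996850-163997099 and for Kcna6 at chr6:126690693-126690942. Capitals mark a GC box, the letters GGGCGG on either strand.
Kcns1: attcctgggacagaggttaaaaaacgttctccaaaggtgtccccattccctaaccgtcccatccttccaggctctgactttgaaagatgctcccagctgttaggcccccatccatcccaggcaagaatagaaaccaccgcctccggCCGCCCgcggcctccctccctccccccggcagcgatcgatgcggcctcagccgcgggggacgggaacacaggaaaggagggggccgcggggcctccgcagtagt
Kcna6: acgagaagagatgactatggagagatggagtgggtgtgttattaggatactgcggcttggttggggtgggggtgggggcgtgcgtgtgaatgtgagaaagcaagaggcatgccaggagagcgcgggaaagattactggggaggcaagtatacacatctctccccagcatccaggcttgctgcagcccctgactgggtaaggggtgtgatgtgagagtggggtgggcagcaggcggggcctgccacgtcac

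The Kcns1 window is 63.2% G and C and has 1 GC box; the Kcna6 window is 58.8% G and C and has none. A GC box stood in 32.7% of all 32851 RefSeq windows of this length and in 41 of 94 windows of potassium channel genes, which cover 69 of the 94 genes. The letters of an AP-1 site (TGANTCA), a STAT site (TTCNNNGAA), a cyclic AMP response element (TGACGTCA), an E-box (CACGTG) and an EGR1 site (GCGTGGGCG) were searched on both strands, and neither printed window holds any of them. Among the 9 genes past the threshold that the table covers, an AP-1 site was found before a start of Kcnk2 and a STAT site before a start of Kcnip1 and of Kcnj16. The share of windows with an AP-1 site was 6.75% over all genes and 4.26% over potassium channel genes, and for the STAT site it was 7.02% and 7.45%. A match of letters is a description of the sequence and shows no binding.

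Silent Kv subunits (Kcnf, Kcng, Kcns and Kcnv) do not make channels of their own but join Kv2 subunits and change their gating. Of 9 tested, 2 rose and 1 fell, and they held the largest rise among potassium channel genes with a mean of 1 CPM or more. With 20.4% of all genes tested past the threshold, a count over 9 genes is no result about the family. Kcns1, which encodes Kv9.1, stood at 10.6 and 8.17 CPM in controls against 32.8 and 34.3 CPM in knockouts. Both knockout libraries lay more than 3-fold above both controls. Its log2 fold change was 1.84 ± 0.16 (SE, adjusted p = 0.00117), a 3.58-fold rise, on chromosome 2 from 163989355 to 163996849 (minus strand, mm9). Kcns2, which encodes Kv9.2, was at 36.5 and 40.2 CPM in controls against 50.4 and 53.4 CPM in knockouts. It rose by 0.44 ± 0.11 on the log2 scale (adjusted p = 0.0312), but missed the threshold with either control left out (adjusted p = 0.221 and 0.126).

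Kcnv1, which encodes Kv8.1, moved the other way. It was at 69.7 and 68.5 CPM in controls against 35.5 and 33.0 CPM in knockouts, with little spread inside either group. It fell by 1.01 ± 0.10 on the log2 scale (adjusted p = 0.00192), and lies on chromosome 15 from 44937830 to 44946480 (minus strand, mm9). Kcns1 was thus the rarer of the pair in the controls, at 3.45 CPM per kb against 15.4 for Kcnv1, and the more abundant in the knockouts, at 12.4 against 7.62. The other 6 tested silent subunits did not pass, with log2 fold changes from -0.49 for Kcng4 to 0.12 for Kcng3. Kcng2 had the highest level per length of this family, 35.4 CPM per kb, over an annotated exon length of only 0.705 kb; its log2 fold change was 0.08 ± 0.12. Among the subunits that these proteins join, Kcnb2, which encodes Kv2.2, did not pass, at -0.10 ± 0.17 on the log2 scale (adjusted p = 0.707).

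Among the Kv1 subunits, which sit on axons and near the spike initiation zone, 2 of 6 tested genes fell and none rose. Over all genes tested 11.0% fell and 9.39% rose, and a count over 6 genes is no result about the family. Kcna6, which encodes Kv1.6, was at 104 and 110 CPM in controls against 62.1 and 59.9 CPM in knockouts. The groups lay far apart relative to their spread, and it fell by 0.81 ± 0.10 on the log2 scale (adjusted p = 0.00328). Of its 5933 exon bases (chromosome 6, 126658347 to 126690680, mm9), 2343 overlap the predicted gene Gm17456 on the opposite strand. No source used here gives the strand setting of the counting, so reads from that gene could not be told apart. Kcna4, which encodes the rapidly inactivating Kv1.4, was at 50.6 and 44.5 CPM in controls against 34.7 and 34.5 CPM in knockouts. It fell by 0.46 ± 0.11 (adjusted p = 0.0307) and did not pass without the first control (0.252) or the second (0.0984).

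Kcna1, which encodes Kv1.1 and had the highest level of the family at 34.4 CPM per kb, did not pass, at 0.14 ± 0.09 on the log2 scale (adjusted p = 0.306). Kcna2, its usual partner in axons, was at -0.14 ± 0.15 (adjusted p = 0.539). Kcna3, found in lymphocytes and microglia as well as neurons, was at -0.76 ± 0.23 (adjusted p = 0.0524), and Kcna5 was at 0.81 ± 0.28 (adjusted p = 0.0826). Both passed when the first knockout library was left out. Kcna10 gave 2 and 1 reads in controls against 12 and 4 in knockouts and was not tested; the ratio was 5.57, with a 95% counting interval of 1.60 to 29.8.

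The Kv3 and Kv4 subunits carry the fast repolarization of interneurons and the A-type current of dendrites. None of the 4 Kv3 and 3 Kv4 genes passed. In the same test 3 of the 7 had an unadjusted p under 0.05, where 35 of the 81 tested potassium channel genes did. The share of all genes tested with such a p was not counted, so this is no result about these families. Kcnc2, which encodes Kv3.2, was at -0.33 ± 0.10 on the log2 scale (adjusted p = 0.0579). Kcnd2, which encodes Kv4.2 of pyramidal dendrites, was at 126 and 143 CPM in controls against 94.8 and 113 CPM in knockouts. The log2 value of -0.37 ± 0.12 missed the threshold (adjusted p = 0.0708). Kcnd2 passed with DESeq2 (0.0427) and with the replicate block (0.0419). It did not pass with RLE scaling (0.0732), limma-voom (0.0679), legacy estimation (0.0677), no filter (0.0828) or the stricter filter (0.0754). With 1 library left out the value ran from -0.49 to -0.24. Kcnd3, which encodes Kv4.3, was at 0.23 ± 0.10 (adjusted p = 0.140).

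Kv accessory subunits adjust the surface number and inactivation of the pore subunits, and 2 of 11 tested genes rose while none fell. This is 18.2% past the threshold, where 20.4% of all genes tested passed. Kcnip1, a calcium-binding partner of Kv4 channels, was at 25.3 and 21.7 CPM in controls against 31.8 and 32.8 CPM in knockouts. The knockouts lay above both controls by a modest margin, and it rose by 0.46 ± 0.13 (adjusted p = 0.0411). It did not pass without the first control (0.112), the second control (0.307) or the second knockout (0.0552). Its relatives Kcnip2 (0.38 ± 0.14, adjusted p = 0.0942) and Kcnip4 (0.26 ± 0.14, adjusted p = 0.237) had positive log2 fold changes that did not pass. Kcnip3, which also acts as a transcriptional repressor, spread widely inside each group, at 175 and 119 CPM in controls against 219 and 113 CPM in knockouts.

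Kcnab2, the redox-sensitive beta subunit of Kv1 channels, had the highest level of all potassium channel genes, 175 CPM per kb, and alone took 19.3% to 20.7% of their CPM. Its groups overlapped, at 944 and 1001 CPM in controls against 1056 and 899 CPM in knockouts (log2 fold change 0.01 ± 0.10). The sign became negative without the first control or the first knockout. The plot of levels by family shows how far it stands above the rest.

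**Figure D4:**
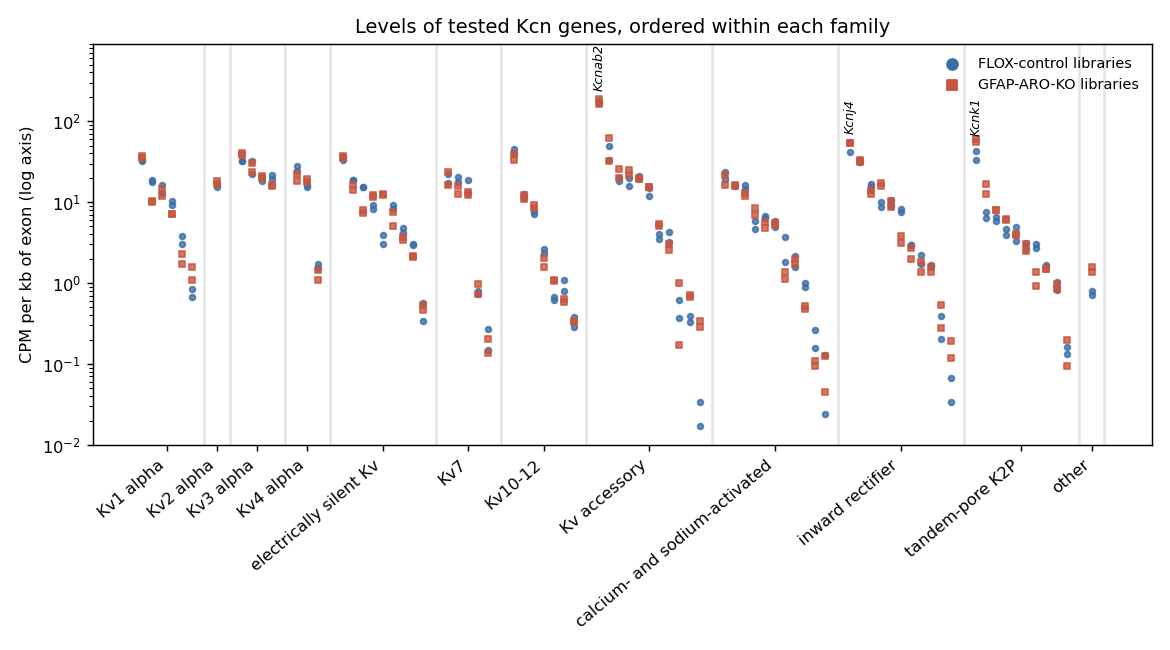
Level per length (CPM per kb of exon, log axis) of the tested potassium channel genes with a single annotated length, in each of the 4 libraries, ordered within each family; the 3 genes with the highest levels are named. Kcnab2 lies at 175 CPM per kb on average, above Kcnj4 at 51.4 and Kcnk1 at 47.9.

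Kcne2, a small accessory subunit that is abundant in the choroid plexus epithelium, had the largest fold change but few reads. It gave 2 and 1 reads in controls against 18 and 17 in knockouts, so both knockouts were above both controls at a very low level. That is a ratio of 12.2 (95% counting interval 3.84 to 62.0), and the test gave an adjusted p of 0.0104. It did not pass without the first control (0.0928) or the second (0.130). Of 7 tested markers of choroid plexus 2 rose, Ttr and Clic6, and the other 5 did not pass, with Prlr at -0.79, Calml4 at -0.28 and Aqp1 at -0.02 on the log2 scale. The 8 markers summed to 43.2 and 42.5 CPM in controls against 54.3 and 68.3 CPM in knockouts. None of the 8 was at 0 in all libraries, and Ttr, the transthyretin gene that defines this epithelium, was at 6.84 and 4.47 CPM in controls against 13.2 and 30.4 CPM in knockouts. Their part in the Kcne2 result was not tested. Kcnj13, a Kir channel of the same epithelium, gave 5 and 7 reads in the controls, 6 in the first knockout and 69 in the second, and was not tested, since only 1 library had enough reads. Knockout over control, the ratio was 6.53 with both knockouts (95% counting interval 3.53 to 13.2) but 0.942 with the first alone (0.290 to 2.71). Of its 1270 exon bases 623 overlap Gigyf2 on the opposite strand.

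Kv7 (Kcnq) channels carry the M-current that restrains repeated firing, and Kv10 to Kv12 (Kcnh) channels include the ERG group. None of the 5 Kv7 and 7 tested Kcnh genes passed in edgeR's quasi-likelihood test. There 4 of these 12 had an unadjusted p under 0.05, where 35 of the 81 tested potassium channel genes did. Such a share over all genes tested was not counted, so this too is no result about the families. DESeq2 called 2 of the 12 and limma-voom called none. Kcnq3, a subunit of the M-channel, overlapped between groups, at 45.0 and 58.5 CPM in controls against 61.3 and 42.9 CPM in knockouts. Kcnh7, an ERG subunit whose exons overlap those of Gca on the opposite strand, was at -0.64 ± 0.19 on the log2 scale (adjusted p = 0.0506). It passed with DESeq2 (0.0374), the replicate block (0.0358) and legacy estimation (0.0488). It did not pass with RLE scaling (0.0528), limma-voom (0.056), no filter (0.0575) or the stricter filter (0.053). With 1 library left out its log2 fold change ran from -0.84 to -0.41. Kcnh3, which had the highest level of its family at 39.8 CPM per kb, was at -0.25 ± 0.12 (adjusted p = 0.179) and passed without the first knockout (log2 fold change -0.38, adjusted p = 0.0258).

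Of the 11 tested calcium- and sodium-activated channel genes, 1 rose, 1 fell and 9 did not pass, where 20.4% of all genes tested passed. Kcnt1, which encodes the sodium-activated channel Slack, was at 44.3 and 34.8 CPM in controls against 52.4 and 64.6 CPM in knockouts. It rose by 0.56 ± 0.16 (adjusted p = 0.0428), and did not pass without the first control (0.0545), the second control (0.250) or the second knockout (0.104). Its relative Kcnt2, which encodes Slick, pointed the other way. It was at 11.4 and 23.1 CPM in controls against 7.01 and 8.54 CPM in knockouts, so that the controls differed from each other more than the knockouts did. The log2 fold change of -1.16 ± 0.34 missed the threshold (adjusted p = 0.0583), was -1.57 without the first control (adjusted p = 0.00953), -0.56 without the second (0.244), and passed with DESeq2 (0.00183) and with the replicate block (0.00602).

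Kcnu1, a relative of the BK channel known mainly from sperm, was low throughout, at 3.70 and 3.30 CPM in controls against 1.88 and 1.74 CPM in knockouts. It fell by 0.95 ± 0.24 (adjusted p = 0.0333), but did not pass without the first control (0.203), the second control (0.135) or the second knockout (0.0604), nor with DESeq2 (0.0844). Kcnma1, which encodes the pore of the BK channel and had the highest level of this group at 20.2 CPM per kb, was at -0.18 ± 0.16 (adjusted p = 0.454), and Kcnmb4, its neuronal beta subunit, at -0.01 ± 0.10. The SK channel genes Kcnn1, Kcnn2 and Kcnn3, which shape the afterhyperpolarization, had log2 fold changes of -0.33, -0.31 and 0.00 and did not pass. Kcnmb1, a BK beta subunit of smooth muscle, was at -1.03 ± 0.45 (adjusted p = 0.144).

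Among the inward rectifiers 1 of 11 tested genes rose, 1 fell and 9 did not pass, where 20.4% of all genes tested passed. Kcnj16, which encodes Kir5.1, a subunit of glial Kir channels that makes them sensitive to pH, was at 29.4 and 32.6 CPM in controls against 12.4 and 15.03 CPM in knockouts. Both knockouts lay far below both controls. It fell by 1.18 ± 0.15 on the log2 scale (adjusted p = 0.00364), on chromosome 11 from 110829347 to 110889282 (plus strand, mm9). Markers of astrocytes went both ways beside it, with 1 of 10 higher, 2 lower and sums of 6271 and 6617 CPM in controls against 5279 and 5611 CPM in knockouts. Gfap, among those that fell, was at 1378 and 1435 CPM in controls against 761 and 709 CPM in knockouts. Aqp4 fell as well, at 231 and 240 CPM in controls against 73.9 and 105 CPM in knockouts. Gjb6 rose, at 46.6 and 47.0 CPM in controls against 84.0 and 118 CPM in knockouts. The median log2 fold change of the 10 was -0.08, with 6 below 0 and 4 above. Of 10 markers of oligodendrocytes 5 fell, with sums of 4539 and 4286 CPM in controls against 3698 and 4063 CPM in knockouts. None of these 20 markers was at 0 in all libraries, and their part in the fall of Kcnj16 was not tested.

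Kcnj11 encodes Kir6.2, the pore of the channel that ATP closes and that opens as ATP falls. It was at 31.0 and 27.1 CPM in controls against 53.5 and 48.4 CPM in knockouts, with no overlap. It rose by 0.81 ± 0.12 (adjusted p = 0.00619), on chromosome 7 from 53352533 to 53355607 (minus strand, mm9). Leaving out the second control ended the call (adjusted p = 0.0556). Abcc8, the sulfonylurea receptor that pairs with this pore in neurons, was at 25.5 ± 4.34 CPM in controls against 35.3 ± 1.38 CPM in knockouts (SD; n = 2 in each group). Its difference of 0.47 ± 0.14 on the log2 scale missed the threshold (adjusted p = 0.0560). It passed with DESeq2 (0.0349) and the replicate block (0.0377). It did not pass with RLE scaling (0.0553), limma-voom (0.0506), legacy estimation (0.0531), no filter (0.0638) or the stricter filter (0.0539). The vascular pair of this channel did not pass, with log2 fold changes of -0.15 ± 0.22 for Kcnj8 and -0.22 ± 0.18 for the receptor gene Abcc9. Subunits of the channels that G proteins open did not pass: Kcnj3 at -0.25 ± 0.11, Kcnj6 at -0.02 ± 0.13 and Kcnj9 at -0.01 ± 0.10. Kcnj5, a low member of that group, was at 1.63 ± 0.54 on 10 and 5 reads against 30 and 15 (adjusted p = 0.0711). Kcnj4, which had the highest level of the family at 51.4 CPM per kb, overlapped between groups (0.14 ± 0.14).

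K2P leak channels had 2 genes that rose and 1 that fell among 10 tested, where 20.4% of all genes tested passed. A count over 10 genes is no result about the family. Kcnk2 encodes TREK-1, a leak channel that opens with stretch, warmth and polyunsaturated fatty acids. It was at 27.5 and 23.1 CPM in controls against 45.0 and 60.2 CPM in knockouts, and the second knockout was the highest. Its log2 fold change was 1.05 ± 0.17 (adjusted p = 0.00739), on chromosome 1 from 191031816 to 191167711 (minus strand, mm9), and 0.84 without the second knockout (adjusted p = 0.00530). Kcnk1, which encodes TWIK-1 and had the highest level of the family at 47.9 CPM per kb, was at 98.0 and 77.3 CPM in controls against 138 and 128 CPM in knockouts. It rose by 0.60 ± 0.13 (adjusted p = 0.0196) and did not pass without the second control (0.134). The other mechanosensitive channels of the TREK group, Kcnk4 (0.51 ± 0.17, adjusted p = 0.0694) and Kcnk10 (-0.10 ± 0.19), did not pass. Nor did the acid-sensitive TASK genes Kcnk3 (-0.05 ± 0.19) and Kcnk9 (0.37 ± 0.16).

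Kcnk13 encodes THIK-1, which in the brain is found mainly in microglia. It was at 9.38 and 8.41 CPM in controls against 4.27 and 2.87 CPM in knockouts, with the second knockout lowest. It fell by 1.30 ± 0.23 on the log2 scale (adjusted p = 0.00983; 0.0628 without the first control), on chromosome 12 from 101202709 to 101300892 (plus strand, mm9). Markers of microglia moved with it. Of 12 such markers 10 fell and none rose, and their sum was 586 and 657 CPM in controls against 332 and 338 CPM in knockouts. Cx3cr1, the fractalkine receptor of microglia, was at 66.2 and 72.6 CPM against 27.5 and 24.1 CPM, and none of the 12 was at 0 in all libraries. Their part in the Kcnk13 result was not tested. Kcnk6, which has also been seen in microglia, was at 3.40 and 4.22 CPM in controls against 4.02 and 3.51 CPM in knockouts, and did not pass (log2 fold change -0.01 ± 0.23).

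Some markers of neurons also differed between the groups. Of 9 markers of excitatory neurons 3 fell and none rose, with sums of 11422 and 12194 CPM in controls against 10900 and 10771 CPM in knockouts. Of 9 markers of inhibitory neurons 2 fell and none rose, with sums of 1126 and 1100 CPM in controls against 1049.5 and 989 CPM in knockouts. Of 9 markers of dentate granule cells 5 rose and none fell, with sums of 461 and 428 CPM in controls against 524 and 569 CPM in knockouts. Of 8 CA1 markers 3 fell, with sums of 1138 and 1268 CPM against 993 and 1046 CPM. Of 8 thalamus markers 2 fell, 1 rose and 5 did not pass, with a median log2 fold change of -0.008. Their sums were 250 and 263 CPM in controls against 134 and 153 CPM in knockouts, and most of that difference was in the single gene Slc17a6. Among them Slc17a6, which loads glutamate into vesicles in the thalamus, was at 117 and 111 CPM in controls against 11.1 and 19.7 CPM in knockouts. Prkcd rose, by 0.74 on the log2 scale. None of these markers was at 0 in all libraries. Their part in the results for potassium channel genes was not tested.

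Among genes outside the name rule, 17 of 19 partners of potassium channels could be tested, of which 2 fell, none rose and 15 did not pass. That is 11.8% past the threshold, where 20.4% of all genes tested passed, and is no result about partners as a group. Cntn2, an adhesion protein that gathers Kv1 channels along myelinated axons, fell by 0.92 ± 0.14, from 153 ± 14.1 CPM to 80.5 ± 14.6 CPM (SD; n = 2 in each group; adjusted p = 0.00665). It passed with each library left out. Vapb, an endoplasmic reticulum protein that tethers Kv2 clusters, fell by 0.36 ± 0.09 (adjusted p = 0.0333), and did not pass without the first control (0.193), the second control (0.166) or the second knockout (0.0783). Dpp6, the main Kv4 partner at the membrane, was at 0.09 ± 0.10 (adjusted p = 0.531) and Cntnap2, which holds Kv1 channels in place with Cntn2, at 0.40 ± 0.13 (adjusted p = 0.0746).

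Of the remaining genes, Kcnrg, a regulator that binds Kv subunits, was at 0.95 ± 0.34 (adjusted p = 0.0886), and Kcne3, an accessory subunit, at 0.96 ± 0.38 (adjusted p = 0.116), both on fewer than 50 reads a library. Kcnq1ot1, a noncoding RNA antisense to Kcnq1, was at 0.20 ± 0.19; without a stated strand setting its reads and those of Kcnq1 could not be told apart where they overlap. In all, 13 genes had too few reads for the test, and 4 of them, Kcnj1, Kcnk15, Kcnk16 and Kcnk18, gave 0 reads in all 4 libraries. By mean level, 72 of the 94 genes reached 1 CPM, 50 reached 10 CPM and 15 reached 100 CPM.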

How the data were processed

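The deposited files hold raw read counts per gene symbol, 1 file a library. The authors aligned 50 bp single-end reads of hippocampal total RNA to mm9 with TopHat2 2.0.8b and counted reads by HTSeq, as listed per the labels and the submitters' processing notes. No source used here gives strand setting or annotation. HTSeq's 5 tally rows, 45.17% to 47.3% of each file's total, were left out. Groups came from sample titles.

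Counts were scaled by TMM, kept by filterByExpr (minimum count 10, minimum total 15; 15011 genes) and tested by quasi-likelihood (edgeR 4.0.16 under R 4.3.3; glmQLFit, robust, non-legacy, then glmQLFTest), Benjamini-Hochberg adjusted over all genes, threshold 0.05. SE is the absolute log2 fold change over the square root of F. Counting intervals are exact binomial.

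The members, gene lists and tests were chosen with earlier results of these data known. Named genes are all members past the threshold, the member of each family with the highest CPM per kb, the 5 largest changes not past it, and called partners, pumps and cotransporters; other members, markers and partners were named after their values were seen. Exon lengths and positions are from GENCODE vM1 on NCBIM37, which held 91 of 94 members once. The fit was tested on simulated data for GFAP-ARO-KO against FLOX-control (14858 genes tested, 200 changed): it found 35.4% of changes of 1.5-fold and 78% of those of 2-fold, and at 4-fold 96%. The simulated spread followed the trend over genes without a gene's own spread, and fewer genes were changed than passed in the data. These shares thus need not hold for the data.

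Alternatives were RLE scaling, no and stricter filters, DESeq2 1.42.0, limma-voom (limma 3.58.1), legacy estimation, a replicate block, and leaving out 1 library at a time. Some named genes are not reported here.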

Additional observations from a re-analysis of the deposited data

How the results depend on the processing

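Of the 14 called genes none changed sign under any of the 11 alternatives. Their knockout and control libraries do not overlap, so a change of sign was hardly possible. RLE scaling, no filter, limma-voom, legacy estimation and the replicate block kept all 14 calls. DESeq2 did not call Kcnu1 and gave no adjusted p for Kcne2, and the stricter filter left Kcne2 untested. DESeq2 called 10 potassium channel genes lower against 6, and 5 partners against 2, of 17 partners tested in the main fit. In all it called 22.2% of the potassium channel genes and 21.3% of all genes. The labels do not say whether the replicate numbers pair the samples. The deviations of replicates with the same number had a correlation of -0.0057 over all tested genes. This cannot exclude a shared day or litter. With the numbers as a replicate block 10 genes were lower and 9 higher. That is 23.5% of the potassium channel genes, against 21.3% of all genes, and 4 partners passed. With each library left out in turn the number higher ran from 2 to 12, the number lower from 4 to 15, partners called from 1 to 4, pumps and cotransporters called from 0 to 4, and the median log2 fold change of the tested genes from -0.0858 to 0.0206. Among the genes chosen by the naming rule, signs turned for 4, none of them called: Kcnab2 ran from -0.114 to 0.130 in these fits, Kcnq3 from -0.271 to 0.254, Kcnma1 from -0.385 to 0.00756 and Kcnj4 from -0.0521 to 0.373. Fits without a library rest on 1 library in 1 group, which is assumed to vary like the other group. The cause was not tested. With 2 libraries a group, no library was tested for standing apart. For genes with few reads, such as Kcne2, Kcnj5 and Kcnj13, depth limits what can be shown.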
